A study of Homo sapiens with 6 samples.

Results

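The genes described here are 43 DNA repair genes outside homologous recombination, chosen by name: 10 DNA glycosylases and 6 further genes of base excision repair, 5 of mismatch repair, 11 of nucleotide excision repair, 10 of non-homologous end joining, and MGMT, which reverses alkylation directly. All 43 were found by symbol among the 17631 genes of the tables. The human cell line MDA-MB-231, long established from a breast cancer without hormone receptors or HER2 amplification, had been given vehicle or PDBAG1 at 30 µM for 24 h, and RNA of 3 libraries in each group was sequenced in bulk. PDBAG1 is a synthetic peptide in which a stretch of glycerol-3-phosphate dehydrogenase 1 is joined to a cell-penetrating peptide. The labels give neither group a further allele or agent, do not say what the vehicle was, and name breast cancer tissue as well as this cell line as the source. Nothing in the labels says that the 3 libraries of a group came from separate cultures, so p-values measure the spread between these libraries, which may be technical. Levels are TPM, in which a transcript's reads are scaled for its length and for the library total, so that levels of different genes can be set side by side.

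Base excision repair removes small lesions: a glycosylase cuts out the damaged base, an endonuclease opens the strand at the empty site, poly(ADP-ribose) polymerases mark the break, and a polymerase and a ligase fill and seal it. Mismatch repair corrects errors left by the replicative polymerases, and nucleotide excision repair cuts out a short stretch of strand around bulky lesions such as those of ultraviolet light. End joining ligates broken chromosome ends without a template, after the Ku ring has bound them.

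The libraries were alike in composition. Between 12392 and 12611 genes reached a TPM of 1, the 10 most abundant genes took 8.03 to 8.75% of the total, and the SD of log2 differences over genes was 0.142 to 0.175 within groups and 0.278 to 0.296 between them. One library of each group stood at an edge of its group: of the 42 members tested, 31 were highest in vehicle replicate 1 among the vehicle libraries, as were 60.3% of all genes tested, and 29 were lowest in PDBAG1 replicate 1 among the PDBAG1 libraries, against 52.5%. The mesenchymal markers of the line were high, with VIM at 4270, AXL at 384 and CD44 at 321 TPM in vehicle. In PDBAG1 the means of VIM and CD44 were higher, at 5877 and 484 TPM, and that of AXL was lower, at 320. The oestrogen and progesterone receptor genes ESR1 and PGR were at 2.26 and 0.0267 TPM in vehicle, and EPCAM and CDH1, also expected to be low, at 5.14 and 0.567. ERBB2, the gene of HER2, was expected to be low as well but was at 24.75 TPM, against a median of 21.0 over all genes tested. Of 10 markers of other breast tissue cells, 7 were in the tables, with a summed level of 256.1 to 269.5 TPM in vehicle and 316.4 to 338.5 in PDBAG1, nearly all of it CD68. The leukocyte marker PTPRC lay at 0.86 to 1.41 TPM and the endothelial marker VWF at 0.02 to 0.09, and the fibroblast marker LUM was listed at 0 in 4 of the 6 libraries, while PECAM1 had means of 3.94 and 8.64 TPM in vehicle and PDBAG1. CD68 and PECAM1 both passed the test described next, as higher with PDBAG1, and their part in the results was not tested.

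Of the 43 members, 42 passed the filter on low values and 18 changed at a Benjamini-Hochberg adjusted p under 0.05 in limma. Expression was lower with PDBAG1 for 15 members (35.7% of those tested, where 15.9% of all 12582 genes tested were called lower) and higher for 3 (7.14%, where 21.7% of all genes were called higher). The other 24 did not pass. The fold changes were small: only UNG was also past 1.5-fold, as were 0.477% of all genes tested in the lower direction, and no member was past 1.5-fold in the higher direction, as 2.86% of all genes were. All 3 PDBAG1 libraries lay below all 3 vehicle libraries for 17 members (40.5%, against 20.2% of all genes) and above them for 5 members (11.9%, against 27.2%). When the libraries were rescaled by quantiles, 21.8% of all genes were called lower and 19.1% higher, against 45.2% and 4.76% of the members, and the share of calls over all genes that were higher went from 57.8 to 46.7%. The median log2 fold change (PDBAG1 against vehicle, on the log2(TPM + 1) scale throughout) was -0.09 over the members and 0.03 over all genes tested. A lower level in bulk RNA does not tell fewer cells with a transcript from less of it per cell, and these cannot be told apart here.

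**Figure D1:**
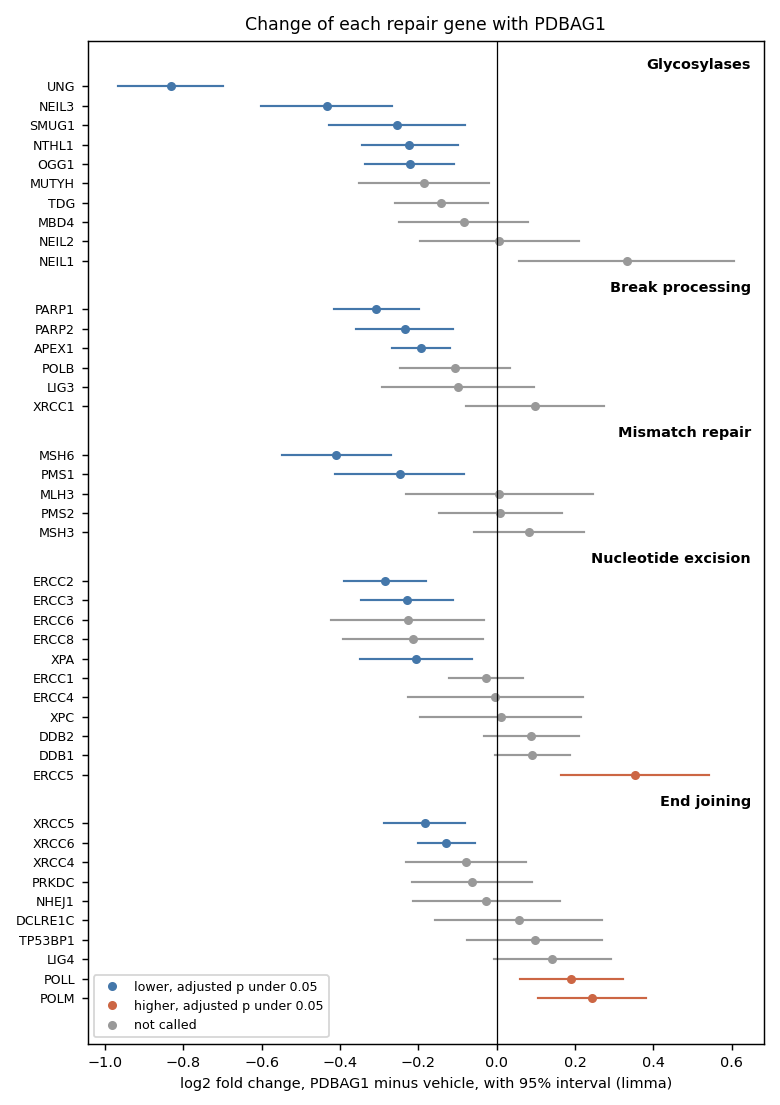
Log2 fold change (PDBAG1 against vehicle, on the log2(TPM + 1) scale) of the 42 members tested, by pathway, with 95% intervals from limma and colours for the call at adjusted p under 0.05. UNG lies far below the other members at -0.83, and the 3 members called higher are ERCC5, POLM and POLL.

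Of the 18 calls, 8 were in base excision repair, 2 in mismatch repair, 4 in nucleotide excision and 4 in end joining. In base excision repair 8 of 16 genes fell and none rose, in mismatch repair 2 of 5 fell and none rose, in nucleotide excision repair 3 of 11 fell and 1 rose, and in end joining 2 of 10 fell and 2 rose. Set beside the 15.9% of all genes called lower and 21.7% called higher, end joining with 20% in each direction was near the background, nucleotide excision stood at 27.3% lower and 9.09% higher, and base excision at 50% lower and 0% higher. Median log2 fold changes were -0.20 for the glycosylases, -0.15 for break processing, 0.01 for mismatch repair, -0.03 for nucleotide excision and 0.01 for end joining. The medians of mismatch repair and end joining turned slightly negative when the libraries were rescaled by median-of-ratios (-0.02 and -0.02) or by quantiles (-0.07 and -0.05). With 1 library left out they ran from -0.10 (without PDBAG1 replicate 3) to 0.07 (without PDBAG1 replicate 1) for mismatch repair and from -0.03 to 0.08 for end joining, so neither median had a settled sign. Differences between the pathways were not tested.

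The strongest change was that of UNG (chr12:109097597-109126725, plus strand; positions of genes are those of GENCODE v44 on GRCh38), the uracil-DNA glycosylase that acts at replication forks and in mitochondria. UNG was at 89.1, 86.7 and 81.8 TPM in the vehicle libraries and at 46.6, 44.4 and 52.7 TPM in the PDBAG1 libraries. The lowest vehicle library was well above the highest PDBAG1 library. Group means were 85.9 ± 3.71 TPM in vehicle and 47.9 ± 4.30 TPM in PDBAG1 (SD over 3 libraries), a change of -44.2%, and the log2 fold change was -0.83 (95% interval -0.97 to -0.70, limma adjusted p = 3.07e-07).

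The promoter of UNG is shown because it holds an E2F-type word, one of the words bound by the factors that drive S phase genes. Words searched on both strands were TTTCCCGC, TTTGGCGC, TTTGCCGC and TTTCGCGC, in the 300 bases from 250 before to 50 after each start site in RefSeq (GRCh38.p14), where 38 of the 43 members had an entry. The promoters of MSH3 and PMS2, members of mismatch repair that did not pass the test, hold such words too and are shown beside it. Each line gives the 150 bases before the start site, read along the strand of the gene, with the E2F-type words in capitals; the coordinates are chr12:109098022-109098171 (plus strand) for UNG, chr5:80654502-80654651 (plus strand) for MSH3 and chr7:6009107-6009256 (minus strand) for PMS2.
UNG: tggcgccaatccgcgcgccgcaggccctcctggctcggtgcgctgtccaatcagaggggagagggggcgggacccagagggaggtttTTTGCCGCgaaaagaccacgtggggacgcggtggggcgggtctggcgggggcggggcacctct
MSH3: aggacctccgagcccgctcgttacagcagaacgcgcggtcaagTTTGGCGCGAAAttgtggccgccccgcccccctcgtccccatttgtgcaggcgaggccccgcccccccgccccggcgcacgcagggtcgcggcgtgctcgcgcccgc
PMS2: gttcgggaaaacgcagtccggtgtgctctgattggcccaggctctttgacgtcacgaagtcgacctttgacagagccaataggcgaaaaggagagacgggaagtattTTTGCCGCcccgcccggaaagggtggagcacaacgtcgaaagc
Both UNG and PMS2 have further start sites in RefSeq, and those shown hold the same word, at positions -63 and -43 from the start site, and in MSH3 2 words overlap, at -107 and -103. Of the other members, MSH6 held a word at position 3, XRCC6 at position 42 and XPC at position -241. A gene was counted if any of its promoters held a word. An E2F-type word was thus present in 3 of 13 members called lower (23.1%), 0 of 3 called higher and 3 of 21 not called (14.3%), against 6.79% of 10296 tested genes. Counted by single promoters, a different unit, it was in 3.31% of all 35116. The NF-Y box CCAAT was in 61.5% of the members called lower, 2 of 3 called higher (66.7%) and 61.9% of those not called, against 43.2% of tested genes. The core of the hypoxia element, ACGTG, was in 53.8% of the members called lower, 2 of 3 called higher (66.7%) and 42.9% of those not called, against 32.4%. These matches describe the letters of the windows and no binding was measured.

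Among the other member glycosylases 4 fell and none rose. MPG, a glycosylase kept among the partner genes, was called higher, with overlapping libraries (105.8 to 118.6 TPM, log2 fold change 0.16, adjusted p = 0.0407). NEIL3 (chr4:177309874-177362936, plus strand), which removes oxidised bases from single-stranded DNA and is expressed in dividing cells, was at 21.7, 20.4 and 20.1 TPM in vehicle and 13.36, 16 and 15.99 in PDBAG1. Its groups were well separated, with a log2 fold change of -0.43 (95% interval -0.60 to -0.27, adjusted p = 0.000656). SMUG1, a second nuclear uracil glycosylase, was at 19.8, 19.8 and 20.6 TPM in vehicle and 17.2, 14.6 and 18.5 in PDBAG1, and fell by 0.25 on the log2 scale (adjusted p = 0.0228). The call of SMUG1 was lost without the filter on low genes (adjusted p = 0.0637) and without vehicle replicate 2 or 3 or PDBAG1 replicate 2. NTHL1, which removes oxidised pyrimidines, was at 40.3, 41.2 and 38.3 TPM in vehicle and 35.5, 34.4 and 32.4 in PDBAG1 (log2 fold change -0.22, adjusted p = 0.00738). OGG1, which removes oxidised guanine, was at 37.2, 35.1 and 35.8 TPM in vehicle and 30.8, 31.0 and 30.5 in PDBAG1 (log2 fold change -0.22, adjusted p = 0.00512). The groups of NTHL1 and OGG1 did not overlap, and the spread of OGG1 over the PDBAG1 libraries was narrow. OGG1 shares 24.9% of its GENCODE exonic bases with a gene on the other strand, CAMK1. The counting strand was not stated and the transcripts used for counting were not checked. Its reads may therefore not be separable from those of CAMK1 there. The same limit holds for LIG3 (29.1%, RFFL), TP53BP1 (28.8%, TUBGCP4) and ERCC1 (28.6%, POLR1G), none of which passed the test. MUTYH shares 31.6% with a gene on its own strand.

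The remaining 5 member glycosylases did not pass the test. NEIL1, a further glycosylase of oxidised bases, was the uncalled member with the largest fold change and pointed the other way. It was at 8.26, 5.32 and 7.48 TPM in vehicle and 9.14, 9.97 and 7.89 in PDBAG1. The highest vehicle library lay above the lowest PDBAG1 library, and the log2 fold change was 0.33 (95% interval 0.06 to 0.61, adjusted p = 0.0548). NEIL1 was called without vehicle replicate 1 or without PDBAG1 replicate 3, and 26.4% of its exonic bases are also those of MAN2C1. MUTYH, which removes adenine opposite oxidised guanine, and TDG, the thymine glycosylase that also takes part in DNA demethylation, had log2 fold changes of -0.19 (adjusted p = 0.0735) and -0.14 (adjusted p = 0.057). Both lay lower in all 3 PDBAG1 libraries than in any vehicle library, and both were called under either rescaling of the libraries. MBD4, which acts on deaminated methylcytosine, and NEIL2 had log2 fold changes of -0.08 and 0.01.

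UNG took a smaller share among the glycosylases that act on uracil or on thymine from deamination. This share draws on the same UNG values as the fall given above and is not a separate result. It made 48.8, 49.6 and 49.0% of the summed TPM of UNG, SMUG1, TDG and MBD4 in the vehicle libraries and 37.6, 36.2 and 38.4% in the PDBAG1 libraries. The difference was -11.75 percentage points (49.1% ± 0.434 against 37.4% ± 1.08, SD, n = 3 each). An exact two-sided permutation test gave p = 0.1, the smallest that 3 libraries against 3 can give. Adjusted over the 6 permutation tests of shares and ratios it was 0.2. The summed TPM of these 4 genes went from 175 to 128, while the 3 without UNG went from 88.9 to 80.1. TDG and MBD4 then made up 26.1 and 23.4% of the sum with PDBAG1, against 21.1 and 18.2% with vehicle. NEIL3 made 61.7% of the summed NEIL genes in vehicle and 50.2% in PDBAG1.

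In break processing, both poly(ADP-ribose) polymerases and the main abasic site endonuclease fell. PARP1, which detects strand breaks, was at 105, 99.9 and 96.3 TPM in vehicle and 78.1, 79.5 and 85.5 in PDBAG1 (log2 fold change -0.31, 95% interval -0.42 to -0.20, adjusted p = 0.000358). PARP2 was at 81.8, 78.2 and 81.3 TPM in vehicle and 62.5, 69.0 and 73.6 in PDBAG1 (log2 fold change -0.23, adjusted p = 0.0058). In neither gene did the groups overlap, with PDBAG1 replicate 1 lowest in both. APEX1, the endonuclease that cuts at abasic sites, was the most abundant member of base excision, at 389, 386 and 386 TPM in vehicle and 335, 337 and 343 in PDBAG1 (log2 fold change -0.19, adjusted p = 0.000596). POLB, the gap-filling polymerase, was at 25.9, 24.5 and 25.1 TPM in vehicle and 23.1, 21.8 and 25.1 in PDBAG1. Its groups overlapped, with a log2 fold change of -0.11 (95% interval -0.25 to 0.03, adjusted p = 0.221). The scaffold XRCC1 and its partner ligase LIG3, which did not pass either, had log2 fold changes of 0.10 and -0.10. The ratio of LIG3 to XRCC1 was 0.817 in vehicle and 0.711 in PDBAG1, with overlapping groups (exact permutation p = 0.2).

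**Figure D2:**
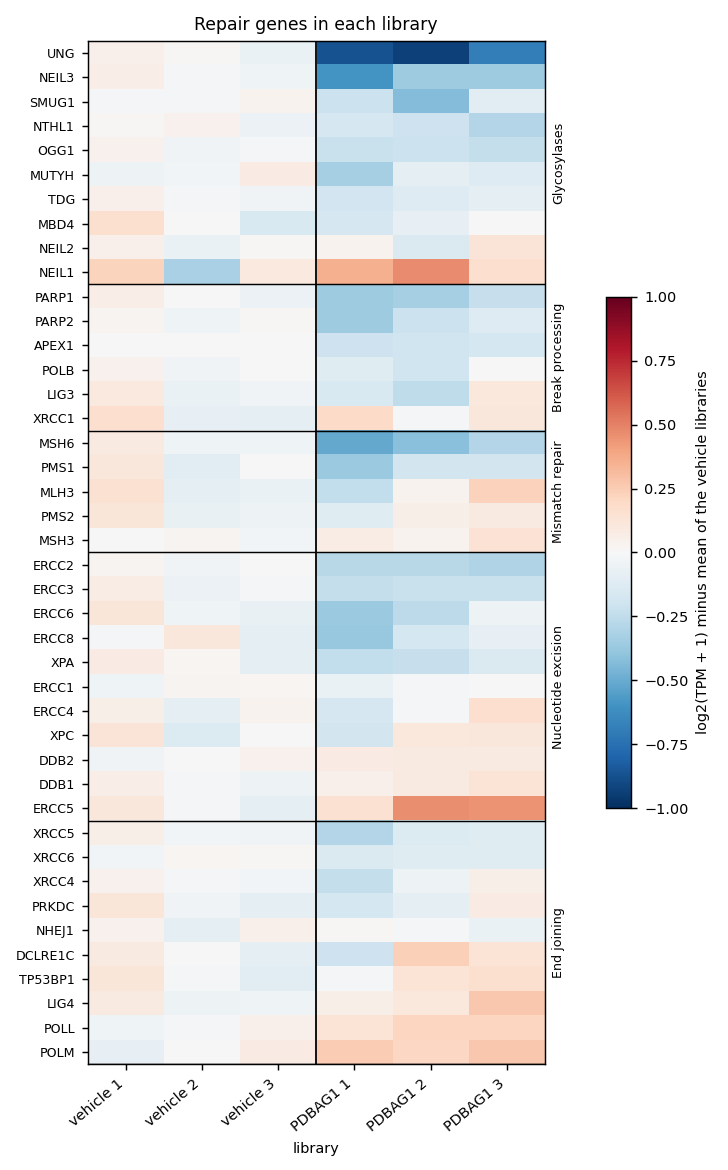
Level of each member in each of the 6 libraries, as the difference from the mean of its vehicle libraries on the log2(TPM + 1) scale (blue lower, red higher), with the 42 tested members in rows by pathway. UNG, NEIL3 and MSH6 are the deepest blue in PDBAG1. ERCC5, POLL and POLM, which were called higher, are red in all 3 PDBAG1 libraries. So are NEIL1, LIG4, MSH3, DDB1 and DDB2, some of them faintly, which were not called.

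In mismatch repair, MSH6 and PMS1 fell and the other 3 genes did not pass. MSH6 (chr2:47695530-47810063, plus strand), the subunit of the heterodimer for single mismatches, was at 47.39, 43.08 and 43.03 TPM in vehicle and 30.9, 33.0 and 36.0 in PDBAG1. All PDBAG1 libraries were below the vehicle libraries, and the log2 fold change was -0.41 (95% interval -0.55 to -0.27, adjusted p = 0.000263). MSH3, its alternative in the heterodimer for larger loops, was at 15.6, 15.9 and 15.3 TPM in vehicle and 16.47, 16.02 and 17.32 in PDBAG1. MSH3 did not pass (log2 fold change 0.08, 95% interval -0.06 to 0.22, adjusted p = 0.346), although its PDBAG1 libraries were all above the vehicle libraries. The ratio of MSH6 to MSH3 was 3.03, 2.71 and 2.82 in vehicle and 1.88, 2.06 and 2.08 in PDBAG1, without overlap (exact permutation p = 0.1). MSH6 shares 22.7% of its exonic bases with FBXO11 on the other strand, within the limit on strand given for OGG1.

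PMS1, a minor partner in the processing complex, was at 24.7, 20.9 and 22.7 TPM in vehicle and 17.3, 19.9 and 19.9 in PDBAG1, and fell by 0.25 on the log2 scale (adjusted p = 0.021). Its call was lost without the filter on low genes (adjusted p = 0.0584) and without vehicle replicate 1 or 3 or PDBAG1 replicate 1. PMS2, the endonuclease of the main processing complex, and MLH3 had log2 fold changes of 0.01 and 0.01 and did not pass. The ratio of PMS2 to PMS1 was 1.16, 1.19 and 1.12 in vehicle and 1.39, 1.38 and 1.41 in PDBAG1 (exact permutation p = 0.1). PMS2 has near-identical pseudogene copies and its level is uncertain.

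**Figure D3:**
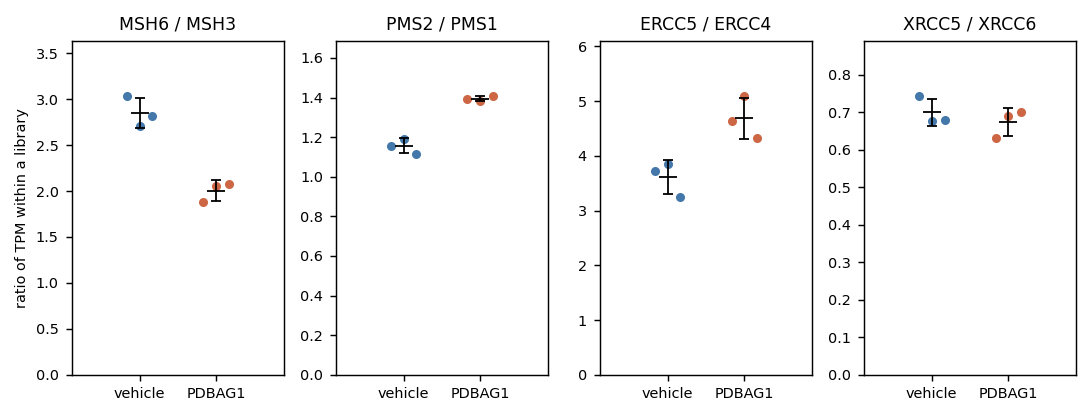
Ratio of TPM of partner or alternative subunits in each of the 6 libraries (points), with the mean and SD of each group (bars), on axes that start at 0. The ratio of MSH6 to MSH3 is below 2.1 in every PDBAG1 library and above 2.7 in every vehicle library, while those of XRCC5 to XRCC6 overlap.

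In nucleotide excision repair, the helicases fell and an incision nuclease rose. ERCC2 and ERCC3 encode the helicase subunits of TFIIH, which opens the strand at a lesion and at promoters. ERCC2 was at 50.7, 48.62 and 49.99 TPM in vehicle and 41.0, 40.8 and 40.2 in PDBAG1 (log2 fold change -0.28, adjusted p = 0.000494). ERCC3 was at 43.8, 39.8 and 40.8 TPM in vehicle and 34.9, 35.4 and 35.3 in PDBAG1 (log2 fold change -0.23, adjusted p = 0.00492). The PDBAG1 libraries were close to each other in both genes, and the ratio of ERCC2 to ERCC3 was 1.201 in vehicle and 1.154 in PDBAG1. XPA, the scaffold of the incision complex, was at 25.3, 24.3 and 22.3 TPM in vehicle and 20.1, 20.3 and 21.5 in PDBAG1, and fell by 0.21 on the log2 scale (adjusted p = 0.0249). The nearest libraries of XPA were 21.5 and 22.3 TPM, and its call was lost without vehicle replicate 1 or 2 or PDBAG1 replicate 1 or 2.

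ERCC5 (chr13:102845831-102875995, plus strand), the nuclease that cuts on the downstream side of the lesion, was at 18.3, 16.7 and 15.7 TPM in vehicle and 18.8, 23.6 and 23.3 in PDBAG1. The groups did not overlap, PDBAG1 replicate 1 being close to vehicle replicate 1, and the log2 fold change was 0.35 (95% interval 0.16 to 0.54, adjusted p = 0.00618). Without both of these libraries it was 0.51. ERCC5 shares 33.0% of its exonic bases with the readthrough gene BIVM-ERCC5 on the same strand, which was at 6.68, 6 and 8.22 TPM in vehicle and 8.02, 7.34 and 8.11 in PDBAG1, and how reads were divided between them is not known. The other incision nuclease, ERCC4, had a log2 fold change of -0.003, and the ratio of ERCC5 to ERCC4 was 3.61 ± 0.315 in vehicle and 4.69 ± 0.380 in PDBAG1 (SD, n = 3 each).

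ERCC6, the translocase that recognises stalled RNA polymerase, was the uncalled member of nucleotide excision with the largest fold change. It was at 15.5, 13.7 and 13.4 TPM in vehicle and 10.7, 11.7 and 13.7 in PDBAG1. PDBAG1 replicate 3 lay within the vehicle libraries (log2 fold change -0.23, 95% interval -0.42 to -0.03, adjusted p = 0.0639), and ERCC6 was called without that library and under either rescaling. ERCC8, its partner in transcription-coupled repair, had a log2 fold change of -0.21 (adjusted p = 0.0579). The damage sensors of the whole genome, XPC, DDB1 and DDB2, had log2 fold changes of 0.01, 0.09 and 0.09, and ERCC1, the partner of ERCC4, of -0.03. None of them passed, while DDB2 was higher in all 3 PDBAG1 libraries than in any vehicle library.

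In end joining, the subunits of Ku fell and both gap-filling polymerases rose. XRCC6 and XRCC5 encode the smaller and larger subunits of the Ku ring. XRCC6, the most abundant member, was at 501, 518 and 515 TPM in vehicle and 462, 471 and 470 in PDBAG1 (log2 fold change -0.13, 95% interval -0.20 to -0.06, adjusted p = 0.00855). XRCC5 was at 372, 351 and 350 TPM in vehicle and 291, 325 and 330 in PDBAG1 (log2 fold change -0.18, 95% interval -0.29 to -0.08, adjusted p = 0.00847). PDBAG1 replicate 1 was the lowest library for both, and the ratio of XRCC5 to XRCC6 was 0.699 in vehicle and 0.674 in PDBAG1, with overlap (exact permutation p = 0.6). The call of XRCC5 was lost under quantile rescaling and without vehicle replicate 1 and PDBAG1 replicate 1 together. PRKDC, the kinase that Ku recruits, was at 57.6, 51.5 and 49.7 TPM in vehicle and 46.6, 49.4 and 56.0 in PDBAG1. Its groups overlapped widely, with a log2 fold change of -0.06 (95% interval -0.22 to 0.09, adjusted p = 0.508), and its ratio to XRCC6 was 0.104 and 0.108 (exact permutation p = 0.5).

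POLM and POLL are polymerases that fill short gaps at broken ends. POLM was at 18.3, 19.5 and 20.6 TPM in vehicle and 23.4, 22.6 and 23.6 in PDBAG1 (log2 fold change 0.24, 95% interval 0.11 to 0.38, adjusted p = 0.00908). POLL was at 20.3, 20.7 and 21.8 TPM in vehicle and 23.1, 24.5 and 24.4 in PDBAG1 (log2 fold change 0.19, adjusted p = 0.0247). The groups of both were separate, and the call of POLL was lost under quantile rescaling and without vehicle replicate 1 or 2 or PDBAG1 replicate 2 or 3. LIG4, the ligase that seals the ends, was the uncalled member of end joining with the largest fold change, at 28.0, 25.2 and 25.4 TPM in vehicle and 27.2, 28.2 and 31.6 in PDBAG1. One PDBAG1 library of LIG4 lay within the vehicle libraries (log2 fold change 0.14, adjusted p = 0.125). The ligase cofactors XRCC4 and NHEJ1, the nuclease DCLRE1C and the chromatin reader TP53BP1 had log2 fold changes of -0.08, -0.03, 0.06 and 0.10 and did not pass.

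MGMT, which takes alkyl groups off guanine, was listed at 0, 0.24 and 0.24 TPM in vehicle and at 0.12, 0.02 and 0.25 in PDBAG1. It lay under the limit of 1 TPM in every library and was not tested.

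The levels of the members covered a wide range. Vehicle means of tested members ran from 4.68 TPM for ERCC4 to 512 for XRCC6, with a median of 24.6, against 21.0 over all genes tested. The 15 members called lower had a median of 44.5 TPM in vehicle, the 24 not called one of 19.0, and the 3 called higher lay between 16.9 and 20.9 TPM. Standard errors of the log2 fold change were 0.034 to 0.080 in members called lower and 0.044 to 0.127 in members not called. The summed TPM was 302 in vehicle and 238 in PDBAG1 for the glycosylases, 628 and 547 for break processing, 120 and 106 for mismatch repair and 1061 and 982 for end joining, in each case without overlap of libraries. For nucleotide excision the sums were 466 ± 11.3 and 458 ± 15.5 TPM (SD, n = 3 each) and the libraries overlapped. Sums weigh the abundant genes most and do not show that a pathway fell as a whole. In end joining XRCC6 went from 512 to 468 TPM and XRCC5 from 358 to 315, while 5 genes had a negative and 5 a positive log2 fold change. In mismatch repair MSH6 went from 44.5 to 33.3 TPM, while 2 genes had a negative and 3 a positive log2 fold change.

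Partner genes of the same pathways, from a list written beside the members, moved as follows. In base excision 6 of 13 fell (46.2%) and 1, the glycosylase MPG, rose (7.69%). Those that fell included the flap endonuclease FEN1 (198 to 155 TPM, log2 fold change -0.36, adjusted p = 2.79e-05). DUT, which keeps uracil out of the nucleotide pool, fell as well (90.7 to 71.4 TPM, -0.34, adjusted p = 0.000268). In mismatch repair 12 of 15 fell (80%) and 1 rose (6.67%), with the exonuclease EXO1 going from 37.0 to 25.1 TPM (-0.54, adjusted p = 1.58e-05) and the clamp loader subunit RFC3 from 53.8 to 37.9 TPM (-0.50, adjusted p = 5.43e-06). Most genes of the mismatch list also serve DNA replication. The 1 that rose was POLD4, the small subunit of polymerase delta, from 35.7 to 53.8 TPM (0.58, adjusted p = 2.57e-06). In nucleotide excision 3 of 16 fell (18.8%) and 2 rose (12.5%), a share of lower calls near the 15.9% of all genes. In end joining 4 of 12 fell (33.3%) and 2 rose (16.7%), and of the alkylation reversal genes ALKBH2 (-0.36, adjusted p = 0.000133) fell and the other did not pass. The histone H2AX went from 241 to 174 TPM (-0.47, adjusted p = 1.45e-06), while RNF168, the ubiquitin ligase that acts after it, rose from 16.2 to 19.9 TPM (0.28, adjusted p = 0.0127). Over all 58 partners the median log2 fold change was -0.13, with 26 that fell (44.8%) and 6 that rose (10.3%).

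Of 18 S phase genes outside the repair lists, 17 fell and none rose. Their median log2 fold change was -0.44 and their summed level 2020 to 2085 TPM in vehicle and 1534 to 1614 in PDBAG1. The part of this shift in the lower levels of UNG, NEIL3, MSH6 and the other members was not tested.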

How the data were processed

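Messenger RNA of MDA-MB-231 cells was measured in 3 vehicle and 3 PDBAG1 libraries. The authors deposited TPM per gene, rounded to 2 decimals; their methods state BGISEQ-500 sequencing, HISAT2 mapping and FPKM, the submitters' processing notes list HISAT2 2.0.4, Bowtie2 2.2.5, RSEM 1.2.12 and GRCh38 p12, and the step to TPM is not stated. TPM keeps no read depth, so counting error is unknown and the 3 libraries per group set the precision. The 12582 genes that reached 1 TPM in at least 3 libraries were tested on log2(TPM + 1) with limma 3.58.1 in R 4.3.3 (lmFit, eBayes with trend), with Benjamini-Hochberg adjustment over all of them. Fold changes of low genes are understated by the pseudocount. The 43 members, the partner lists and the tests were chosen with earlier results of these data known. Values per library are given for up to 5 called members per pathway with the largest change, for the largest uncalled change per pathway, and for MGMT, UNG, PARP1, XRCC5, XRCC6 and PRKDC; partners are up to 3 called genes per list. The share of UNG and 5 ratios were tested by exact two-sided permutation over libraries (adjusted over these 6, p was 0.2 at the lowest); the shares of NEIL3, TDG and MBD4, the ratios of ERCC2 to ERCC3 and of ERCC5 to ERCC4, the level summaries and the ratios of TFIIH and polymerase delta genes were chosen after values were seen and carry no test. Libraries that share a replicate number showed no shared deviation from their group means (correlations -0.21, 0.01 and -0.08). The fit was tested on simulated data with independent normal noise and planted changes larger than those of most members. That test does not show how well changes of the members' size are recovered. Alternatives were another pseudocount, no filter, rescaling of libraries by median-of-ratios or quantiles, a replicate block, and leaving out libraries.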

Additional observations from a re-analysis of the deposited data

How the results depend on the processing

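Of the 18 members called, 13 were called under all 12 alternatives and 5 (SMUG1, PMS1, XPA, XRCC5 and POLL) lost the call under at least 1; none changed sign. Of those not called, 10 were called under at least 1. Members called lower numbered 19 under either rescaling (45.2%), where the share of all genes called lower also rose, from 15.9 to 20.8 (median-of-ratios) and 21.8% (quantiles), and that called higher went from 21.7 to 20.3 and 19.1%. They numbered 13 without a filter (31%, against 9.62% of all genes). With the replicate block 14 were lower (33.3%, against 13% of all genes) and 2 higher (4.76%, against 18.4%). When 1 library was left out, 13 to 17 were lower (31 to 40.5%, against 11.9 to 16.5% of all genes). In those fits 2 to 4 were higher (4.76 to 9.52%, against 16 to 22.9%). An alternative chosen after seeing the data left out both vehicle replicate 1 and PDBAG1 replicate 1. Then 12 members were lower (28.6%, against 14% of all genes) and 8 higher (19%, against 27.5%). The median log2 fold change of end joining was 0.12 there, against -0.033 to 0.077 with 1 library left out. That of mismatch repair ran from -0.105 to 0.074 with 1 library left out. Under quantile normalisation the glycosylase median was -0.26 and that of nucleotide excision -0.12. The share of UNG differed by -12.24 to -11.17 points with 1 library left out. The replicate block removed the calls of XPA and POLL only. The cause of these shifts was not tested. Depth is unknown in TPM, so low genes such as MGMT and ERCC4 carry an unknown counting error.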

Other observations

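The 10 subunits of TFIIH, chosen after their values were seen, did not move together. ERCC2, ERCC3, GTF2H3 and CCNH fell, CDK7 rose and 5 did not pass. CCNH, the cyclin of the kinase module, was at 135, 130 and 138 TPM in vehicle and 102, 99.7 and 108 in PDBAG1 (log2 fold change -0.37, limma adjusted p = 3.04e-05), while its kinase CDK7 was at 106, 98.2 and 101 TPM in vehicle and 111, 114 and 116 in PDBAG1 (0.16, adjusted p = 0.0145). The ratio of CDK7 to CCNH was 0.760 ± 0.0268 in vehicle and 1.10 ± 0.0383 in PDBAG1 (SD, n = 3 each), without overlap. In polymerase delta, 2 of 4 subunits fell and POLD4 rose, so that the ratio of POLD4 to POLD1 was 1.14 ± 0.0114 in vehicle and 1.98 ± 0.0913 in PDBAG1. All 3 subunits of replication protein A and 4 of 5 of replication factor C fell. Protein levels were not analysed here.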
